A study of Mus musculus with 12 samples.

Results

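The design set 2 genotypes of mouse T cells against 2 treatments, and all 12 of the 12 RNA sequencing libraries entered the comparison, 3 in each of the 4 groups. Naive CD4+ T cells from the spleen of C57BL/6 mice were expanded with antibodies against CD3 and CD28, rested without antibodies and then cultured for 16 h with the solvent DMSO or with 10-carboxymethyl-9-acridanone (CMA), a cell permeable agonist of mouse STING. The groups were WT with DMSO, WT with CMA, STING KO with DMSO and STING KO with CMA, where STING KO stands for STINGgt/gt (Goldenticket) mice, which carry a missense mutation of Tmem173, the gene of STING, throughout the body. The mice were young adults of a single sex. The study describes such libraries as biological replicates, but the sources used here do not say whether they came from separate animals, so p-values measure the spread between these libraries. The question was where the CMA effect depended on the genotype, and how that dependence combined with the difference that the genotypes showed already in DMSO. Every comparison covered the 13811 genes that passed a filter on low counts in edgeR.

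STING is an adaptor of the endoplasmic reticulum that is normally engaged by the cyclic dinucleotide made by cGAS on sensing DNA in the cytosol. Engaged STING recruits the kinase TBK1, which activates the transcription factor IRF3, and it also feeds into NF-κB. In most cells this leads to interferons and, through their receptors and STAT proteins, to interferon-stimulated genes, whereas in T cells strong STING activation is known to be linked to cell death and to an arrest of proliferation. Many genes of this kind share a short promoter element, the interferon-stimulated response element, built around repeated GAAA letters.

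Depth ranged from 27414450 to 43784910 reads on genes per library. Levels are given in CPM, counts scaled to library size with edgeR's TMM factors. Tmem173 itself lay between 183 and 190 CPM in WT with DMSO, 296 and 316 in WT with CMA, 168 and 181 in STING KO with DMSO and 169 and 184 in STING KO with CMA, and a missense mutation need not change mRNA, so it checks no label. The 11 CD4 T cell markers summed to 4183 to 4397 CPM in both DMSO groups, 4191 to 4325 in STING KO with CMA and 3732 to 3767 in WT with CMA. B cell markers summed to 315 to 329 CPM in WT with DMSO, 415 to 445 in WT with CMA and 135 to 143 over both STING KO groups. The sum of the 8 CD8 and natural killer cell markers was 66.2 to 71.1 in WT with DMSO, 48.8 to 50 in WT with CMA and 28.9 to 30.3 in STING KO. Myeloid markers reached 84.7 to 93, 158 to 167 and 51.2 to 54.5 CPM in the same order. Most of the myeloid sum came from Cst3 and Cybb, and the defining markers Adgre1, Fcgr1 and C1qa were at 3 counts or fewer in every library with DMSO. In WT with CMA C1qa was at 0, while Adgre1 and Fcgr1 had means of 0.0822 and 0.141 CPM. Erythroid and platelet markers stayed at or below 4.24 CPM in every library. The part of these cells in the results below was not tested, and in bulk RNA fewer cells of a type and less RNA per cell cannot be told apart.

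The difference of the CMA effects, the log2 change with CMA in WT minus that in STING KO, passed an adjusted p of 0.05 for 58.8% of the genes in edgeR's quasi-likelihood test. It was more positive in WT for 27.2% and more negative for 31.6%. The effect moved mainly in WT, where 70.4% of all genes passed the test for CMA against DMSO, against 1.32% in STING KO. Of the 8123 genes with a difference, 7780 had a CMA effect past the threshold in WT alone, 13 in STING KO alone, 81 in both with the same sign and 36 in both with opposite signs. In the remaining 213 neither effect passed. The absolute effect was larger in WT for 7938 of the 8123 genes and larger in STING KO for 185. Over all genes, the median absolute genotype difference rose from 0.183 on the log2 scale with DMSO to 0.435 with CMA.

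Each difference was then read as a movement of the genotype gap, that is of log2 WT over STING KO, which passed the threshold for 42.7% of the genes with DMSO and for 73.5% with CMA. The classes follow from the calls of these gaps, which share no library with each other, while each gap shares libraries with the difference of the CMA effects. A gene was called diverging where the gap was past the threshold with CMA but not with DMSO (29.9% of the genes tested), and widening where both gaps had the same sign and that with CMA was larger (14.1%). Crossing genes had both gaps past the threshold with opposite signs (7.31%). Converging genes had a gap with DMSO but none past the threshold with CMA (4.71%), and narrowing genes kept a smaller gap of the same sign (1.74%). The remaining 1.09% had neither gap past the threshold and were left unresolved. These percentages fix the scale for the gene lists below. On the linear CPM scale the difference had the other sign for 6 of the 8123 genes, 3 widening and 3 narrowing, and for none of the diverging, crossing or converging genes.

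**Figure D1:**
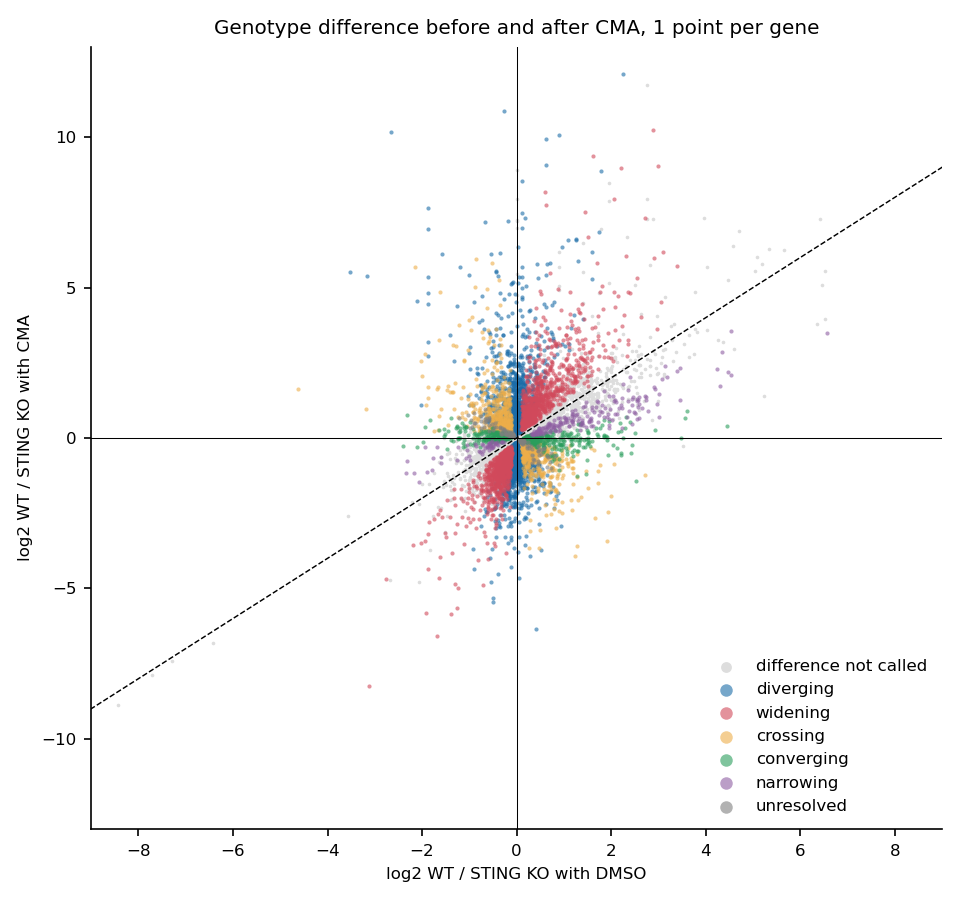
Log2 ratio of WT to STING KO with CMA (vertical axis) against the same ratio with DMSO (horizontal axis), 1 point for each of the 13811 genes, coloured by class. Points on the dashed line have an equal gap with both treatments. Diverging genes stand along the vertical axis, converging genes lie along the horizontal axis, and crossing genes fill the upper left and the lower right of the plot.

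Diverging genes had no gap past the threshold with DMSO and had one with CMA. The class held 4125 genes, 1905 more positive and 2220 more negative in WT, and 999 of them differed by at least 2-fold. Their median absolute gap was 0.0793 with DMSO and 0.555 with CMA on the log2 scale. A gap that misses the threshold does not show equality, and the 95% interval of the DMSO gap lay within 0.5 on either side of 0 for 3410 of the 4125 genes.

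The largest differences among diverging genes, by the rule of 3 per direction with a mean count of at least 50, were those of Ifnl3, Ifnl2 and Krt16. Ifnl3 (chromosome 7 of GRCm38, 28522836 to 28524322), a type III interferon, had no read in any WT library with DMSO, 25.1, 25.9 and 19.4 CPM in WT with CMA, and at most 0.0274 CPM in every STING KO library. Against a floor of 3 counts per library, WT with CMA was at least 249-fold higher than WT with DMSO and at least 312-fold higher than STING KO with CMA. Ifnl2 is a near-identical neighbour and Samd4b overlaps both loci, so the split of reads between these genes is uncertain. Krt16, a keratin of stressed epithelium, had 15.1, 14.8 and 17.0 CPM in WT with CMA and at most 0.235 CPM elsewhere, which is at least 208-fold above STING KO with CMA. All 3 genes were thus near absent outside WT with CMA.

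In the other direction, Slc9b2 (chromosome 3, 135307700 to 135342767), a sodium/proton exchanger, had 37.1, 40.3 and 35.8 CPM in WT with DMSO and 3.74, 3.46 and 2.99 with CMA. In STING KO it had 39.9, 40.4 and 37.3 with DMSO and 43.8, 41.6 and 43.6 with CMA. The DMSO groups overlapped and the CMA groups did not. The difference of the CMA effects was -3.60 (standard error 0.0987, adjusted p = 7.41e-14, edgeR). Eya2, a phosphatase and transcriptional coactivator, went from 3.02 to 3.58 CPM down to 0.126 to 0.216 in WT, against 1.95 to 3.17 over both STING KO groups (difference -3.74). Armcx1 was the third such gene (difference -3.48).

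Interferon-stimulated genes showed how the class depended on the starting gap. All 30 genes of the list were more positive in WT for the CMA effect, and all 30 were higher in WT than in STING KO with CMA, with a median gap of 3.36 on the log2 scale. With DMSO, 15 of them differed between the genotypes, 6 higher and 9 lower in WT, with a median gap of -0.0688. They therefore fell into 15 diverging, 6 widening and 9 crossing genes, beside 29.9%, 14.1% and 7.31% of all genes. Over all genes the median difference was -0.0318, and 27.2% were more positive in WT. The genotypes differed for 42.7% of all genes with DMSO and 73.5% with CMA. The list was chosen with the response of these cells known, so its direction is no independent evidence.

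**Figure D2:**
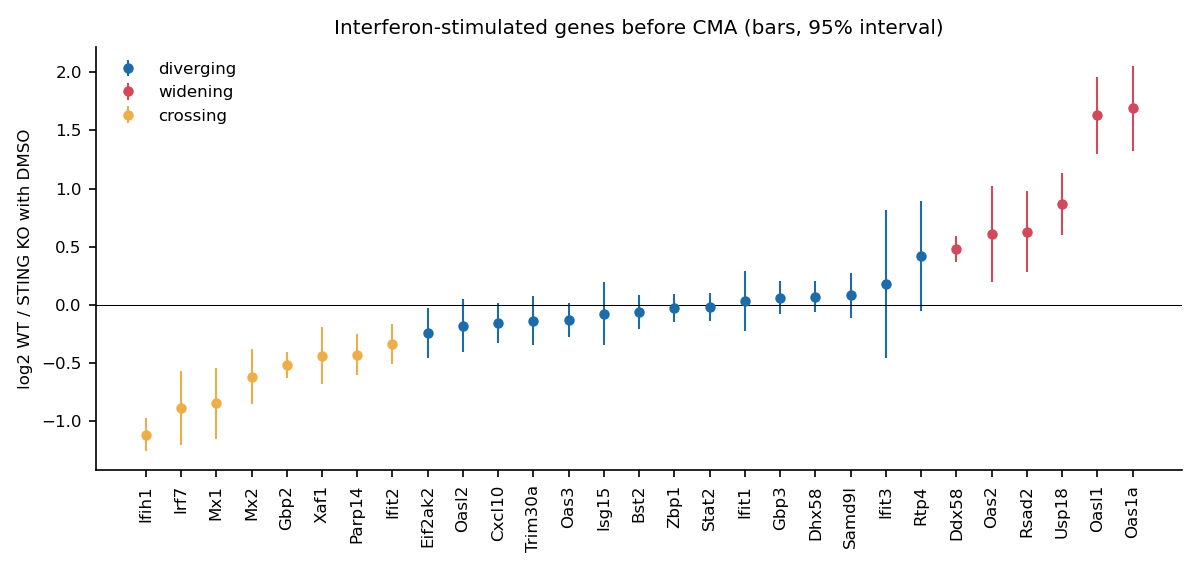
Log2 ratio of WT to STING KO with DMSO for 29 of the 30 interferon-stimulated genes, ordered by size. Points are fitted values, bars are 95% intervals without adjustment for the number of genes, and colours give the class. The 8 crossing genes were lower in WT before CMA and the 6 widening genes were higher.

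The promoters of these genes are shown because the letters of the response element occurred among the diverging, widening and crossing genes that were more positive in WT. For each of these 3 classes the 2 genes with the largest positive difference were taken whose stretch of 120 bases before the start site held the letters, which were Ifit1 and Isg15, Rsad2 and AI607873, and Ddx60 and Pydc3, in that order. Sequences are those of RefSeq for GRCm38.p6, written 5′ to 3′ on the strand of the gene, and capitals mark GAAANNGAAA or TTTCNNTTTC.
Ifit1 (chr19:34640769-34640888, plus strand): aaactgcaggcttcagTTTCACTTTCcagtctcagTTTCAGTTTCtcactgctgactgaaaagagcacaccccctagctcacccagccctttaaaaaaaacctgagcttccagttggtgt
Isg15 (chr4:156200819-156200938, minus strand): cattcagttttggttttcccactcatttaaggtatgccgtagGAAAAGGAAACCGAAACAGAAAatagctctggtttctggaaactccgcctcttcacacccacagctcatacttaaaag
Rsad2 (chr12:26456453-26456572, minus strand): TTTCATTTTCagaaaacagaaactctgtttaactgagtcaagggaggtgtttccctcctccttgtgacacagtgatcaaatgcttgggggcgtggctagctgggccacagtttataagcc
AI607873 (chr1:173741810-173741929, minus strand): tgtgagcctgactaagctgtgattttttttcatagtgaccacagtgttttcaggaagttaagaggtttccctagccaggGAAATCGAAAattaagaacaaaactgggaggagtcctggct
Ddx60 (chr8:61927967-61928086, plus strand): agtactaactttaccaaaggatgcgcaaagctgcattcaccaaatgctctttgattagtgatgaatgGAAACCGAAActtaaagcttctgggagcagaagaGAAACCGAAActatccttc
Pydc3 (chr1:173673545-173673664, plus strand): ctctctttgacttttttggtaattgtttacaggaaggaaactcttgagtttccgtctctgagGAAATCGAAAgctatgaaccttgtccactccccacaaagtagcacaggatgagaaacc

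Ifit1, Ddx60 and Isg15 held 2, 2 and 3 matches, those of Isg15 overlapping, and the other 3 promoters held 1. Ifit1, which binds RNA lacking a host cap, rose in WT from 3.84 ± 0.35 to 366 ± 11.3 CPM and stood in STING KO at 3.83 ± 0.762 with DMSO and 4.46 ± 0.382 with CMA (SD, n = 3). Its gap of 0.03 with DMSO became 6.35 with CMA. Isg15, a ubiquitin-like modifier, went from 11.7 ± 2.09 to 427 ± 18.7 in WT and stood at 12.5 ± 2.61 and 11.6 ± 0.667 in STING KO. Rsad2 (viperin) started higher in WT, at 1.66 ± 0.216 against 1.10 ± 0.262 CPM, and reached 279 ± 11.3 in WT with CMA. Ddx60 started lower in WT, with a mean of 1.10 CPM against 1.62, and reached 77.5 in WT and 1.36 in STING KO with CMA. These starting gaps of Rsad2 and Ddx60 passed the threshold but were small beside the gaps with CMA. A match of letters is a description and not a binding site.

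Over the promoter windows, which reach from 250 bases before to 50 after the start site, the letters GAAANNGAAA on either strand occurred in 3.2% of the 13097 windows of the genes tested and in 2.72% of those of genes with no difference past the threshold. Among genes more positive in WT the share was 8.4% for crossing, 4.66% for widening and 4.36% for diverging genes. With at least a 2-fold difference it was 12.7%, 6.91% and 8.18% in the same order. Crossing genes, which started lower in WT, thus had the highest of these shares. Among genes more negative in WT it lay between 2.1% and 2.62% in these 3 classes. The interferon-stimulated list had the letters in 16 of 24 windows, or 66.7%. No test was made of these shares.

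Crossing numbered 1010 genes, 534 rising above and 476 falling below STING KO in WT, and 464 differed by at least 2-fold. Their median absolute gap was 0.312 before CMA, in one direction, and 0.523 after it in the other. The CMA effect passed the threshold in WT alone for 965 of them. Because the sign of the gap itself changed, the class does not rest on the log scale.

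Mx1 (chromosome 16, 97447035 to 97462907), an antiviral GTPase, had 1.64, 2.45 and 2.12 CPM in WT with DMSO and 3.61, 3.23 and 4.54 in STING KO with DMSO. With CMA it had 242, 229 and 227 in WT and 3.62, 4.09 and 3.53 in STING KO. The groups overlapped with neither treatment, and their order turned. The gap went from -0.85 to 5.95, a difference of 6.80 (standard error 0.172, adjusted p = 3.13e-14, edgeR). Ifih1 (chromosome 2, 62595798 to 62646255), the RNA sensor MDA5, had 21.9, 21.5 and 25.2 CPM in WT with DMSO against 48.1, 48.8 and 52.7 in STING KO. With CMA the values were 344, 325 and 336 against 52.9, 60.5 and 55.3. Irf7, the factor that amplifies interferon genes, likewise stood at 9.13 ± 2.25 CPM in WT and 17.1 ± 3.94 in STING KO with DMSO, and at 474 ± 12.3 and 14.7 ± 1.22 with CMA (SD, n = 3). Gbp2, Mx2, Ifit2, Xaf1 and Parp14 were further crossing members of the list, with gaps of -0.34 to -0.62 before CMA and 0.66 to 4.33 after it.

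Crossing went beyond the interferon list. Tnfsf4 (chromosome 1, 161395409 to 161418410), the ligand of the costimulatory receptor OX40, had 1.64, 1.41 and 1.63 CPM in WT and 4.74, 4.68 and 5.01 in STING KO with DMSO. After CMA there were 160, 140 and 144 CPM in WT and 5.32, 5.34 and 4.68 in STING KO, a difference of 6.47 (standard error 0.133, adjusted p = 4.20e-15, edgeR). Aire, the regulator of tissue antigens known from thymic epithelium, rose from at most 0.134 CPM to 22.4 to 24.9 in WT and stood at 0.361 to 0.543 in STING KO. Reads of Dnmt3l, which overlaps Aire on the opposite strand, cannot be told apart if the counting ignored strand, a setting not given in the sources used here. Il2, the T cell growth factor, started at 3.40 ± 0.297 CPM in WT and 5.50 ± 0.581 in STING KO and ended at 20.9 ± 2.53 and 9.74 ± 1.33 (SD, n = 3). All of these genes changed places in the same direction as Mx1.

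The reverse crossing took genes from above to below STING KO. Rgs16 (chromosome 1, 153740349 to 153745468), which shortens signals of G protein-coupled receptors, had 136, 129 and 126 CPM in WT and 112, 108 and 99.7 in STING KO with DMSO. With CMA it had 15.9, 15.2 and 12.3 in WT and 131, 119 and 116 in STING KO. The groups overlapped with neither treatment, and the difference was -3.36 (standard error 0.106, adjusted p = 3.83e-13, edgeR). Nkg7, a protein of cytotoxic granules, stood at 63.2 to 75.4 CPM in WT against 31.7 to 34.4 in STING KO, and with CMA at 18.5 to 22.1 against 34.7 to 37.7. Trim66 and Bdh2 had the largest differences of this kind, at -4.12 and -3.91, from levels below 9 CPM.

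**Figure D3:**
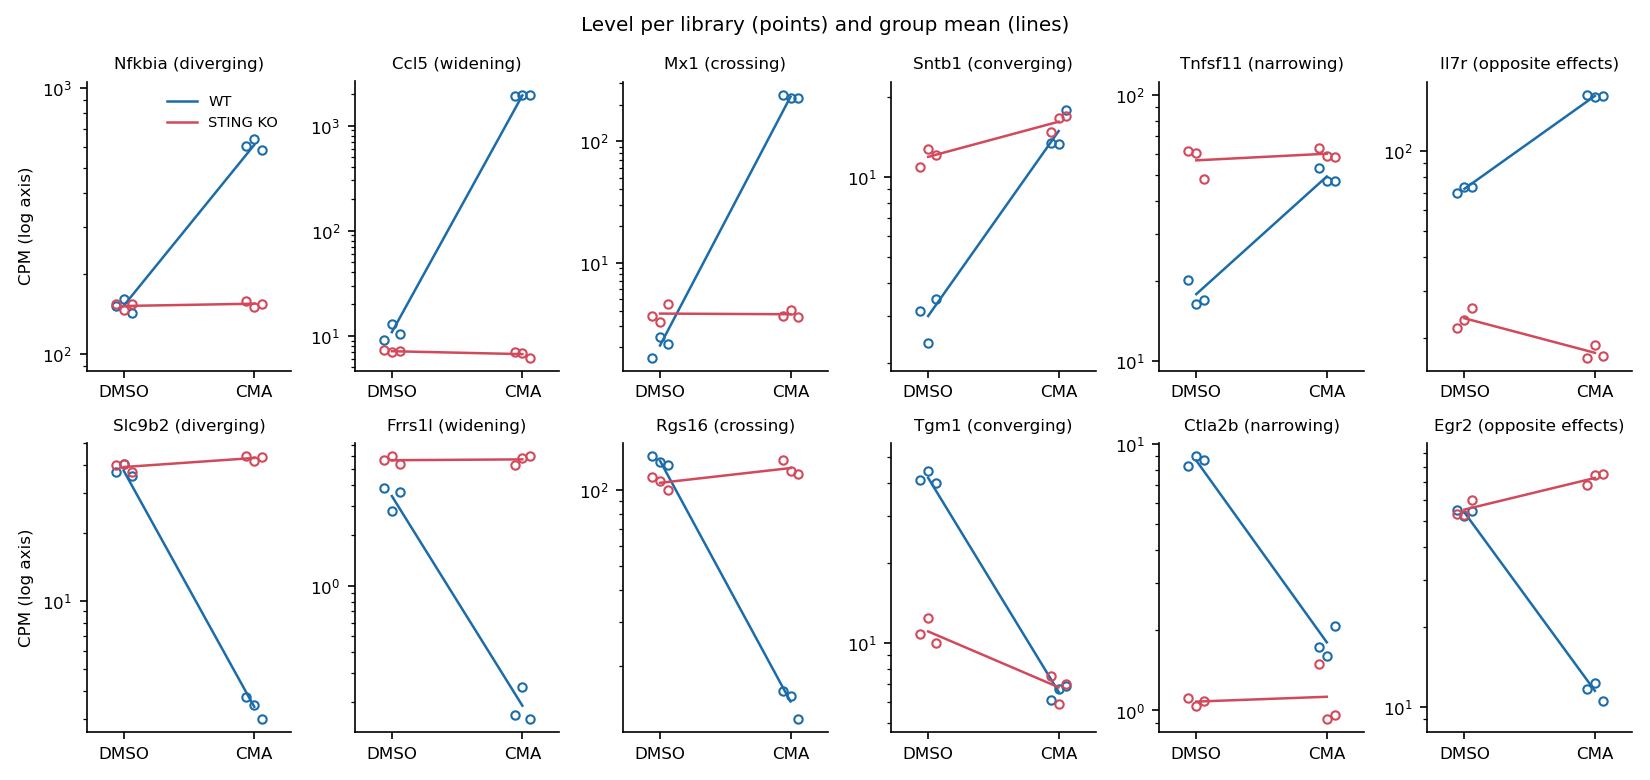
CPM per library (points, logarithmic axis) and group means (lines) with DMSO and with CMA for 12 genes, WT in blue and STING KO in red. Each column holds a gene more positive in WT above one more negative in WT. In every panel the blue line is steeper than the red one. For Il7r and Egr2 the STING KO effect passed the threshold in the direction opposite to that in WT.

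Widening genes started apart and moved further apart. There were 1945, 925 higher and 1020 lower in WT, and 508 differed by at least 2-fold. The median absolute gap went from 0.316 to 1.00. Ccl5 (chromosome 11, 83525778 to 83530518), a chemokine that attracts T cells, had 9.07, 12.9 and 10.5 CPM in WT and 7.29, 6.95 and 7.16 in STING KO with DMSO. With CMA it had 1894, 1938 and 1965 in WT and 6.97, 6.92 and 6.18 in STING KO. Neither pair of groups overlapped, and the gap went from 0.60 to 8.17 (difference 7.57, standard error 0.133, adjusted p = 1.23e-15, edgeR). Oasl1, an oligoadenylate synthetase-like protein, had the largest difference of the class, 7.74, from a gap of 1.63. Its levels were 2.04 to 2.19 CPM and 379 to 425 in WT and at most 0.778 in every STING KO library. Inhbb, which encodes an activin subunit, stood at 33.3 to 35.6 CPM in WT with CMA, at least 462-fold above STING KO, but its call rests on few reads elsewhere and was lost in 1 of the alternative analyses (adjusted p = 0.943).

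Downwards, Frrs1l (chromosome 4, 56957173 to 56990391), known as a partner of neuronal AMPA receptors, had 3.86, 2.82 and 3.66 CPM in WT and 5.64, 5.97 and 5.35 in STING KO with DMSO. With CMA it had 0.167, 0.247 and 0.158 in WT and 5.32, 5.86 and 5.98 in STING KO. The gap went from -0.71 to -4.89, a difference of -4.17 (standard error 0.252, adjusted p = 7.06e-10, edgeR). Dhrs9, a short-chain dehydrogenase, and Actbl2, an actin-like gene, were at 3 counts or fewer in every WT library with CMA. STING KO was at least 56.2-fold and at least 44.9-fold higher there. These genes were already lower in WT with DMSO.

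Of the lists, that of genes that build ribosomes had the most widening members. All 18 were more negative in WT for the CMA effect, beside 31.6% of all genes, with a median difference of -0.934. Of these, 15 widened and 3 diverged, beside 14.1% and 29.9% of all genes. With DMSO 15 of the 18 were already lower in WT and none was higher. With CMA all 18 were lower, the median gap going from -0.32 to -1.25. Of all genes 42.7% differed with DMSO and 73.5% with CMA, in either direction. Wdr12 (chromosome 1, 60076868 to 60098645), needed for the large subunit, had 54.5, 57.8 and 57.2 CPM in WT and 69.9, 70.6 and 66.7 in STING KO with DMSO, and 25.4, 26.2 and 25.6 against 72.7, 75.3 and 71.5 with CMA. Its difference was -1.22 (standard error 0.0619, adjusted p = 8.96e-11, edgeR), with no overlap of the groups in either treatment. Nolc1 and Dkc1, of the nucleolus and the pseudouridylation complex, had gaps of -0.40 and -0.49 before CMA and -1.47 and -1.63 after it. Ncl and Npm1, abundant nucleolar proteins, changed less, with differences of -0.73 and -0.74.

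Cholesterol synthesis genes also started mostly lower in WT. With DMSO 17 of the 18 were lower in WT and none was higher. Of all genes 42.7% differed with DMSO, and 3160 of these 5900 were higher in WT. The CMA effect was more negative in WT for 10 and more positive for none, or 55.6% of the list beside 58.8% of all genes. Of the 18, 9 widened and 1 diverged, beside 14.1% and 29.9% of all genes. The median gap went from -0.391 to -0.607. Lss, which closes the sterol ring, had 153 to 175 CPM in WT against 233 to 249 in STING KO with DMSO, and 82.7 to 84.1 against 221 to 225 with CMA. Its difference was -0.86, and those of Dhcr7 and Sqle were -0.66 and -0.62.

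Genes of the ATF4 and amino acid response were mostly more negative in WT, 14 of 18, with 2 more positive, or 88.9% of the list beside 58.8% of all genes. Asns, which makes asparagine, went from 224 ± 13.1 to 66.6 ± 1.6 CPM in WT and stood at 265 ± 30.3 and 243 ± 17.4 in STING KO (SD, n = 3). Phgdh and Psat1, of serine synthesis, had differences of -1.43 and -1.08, and Slc7a5, the transporter of large neutral amino acids, -1.11. Atf3 was one of the exceptions, rising in WT from 62.6 to 68.4 CPM up to 157 to 164, against 53.4 to 64.2 throughout in STING KO. Ddit3, the other, converged, its gap going from -0.26 to 0.10.

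**Figure D4:**
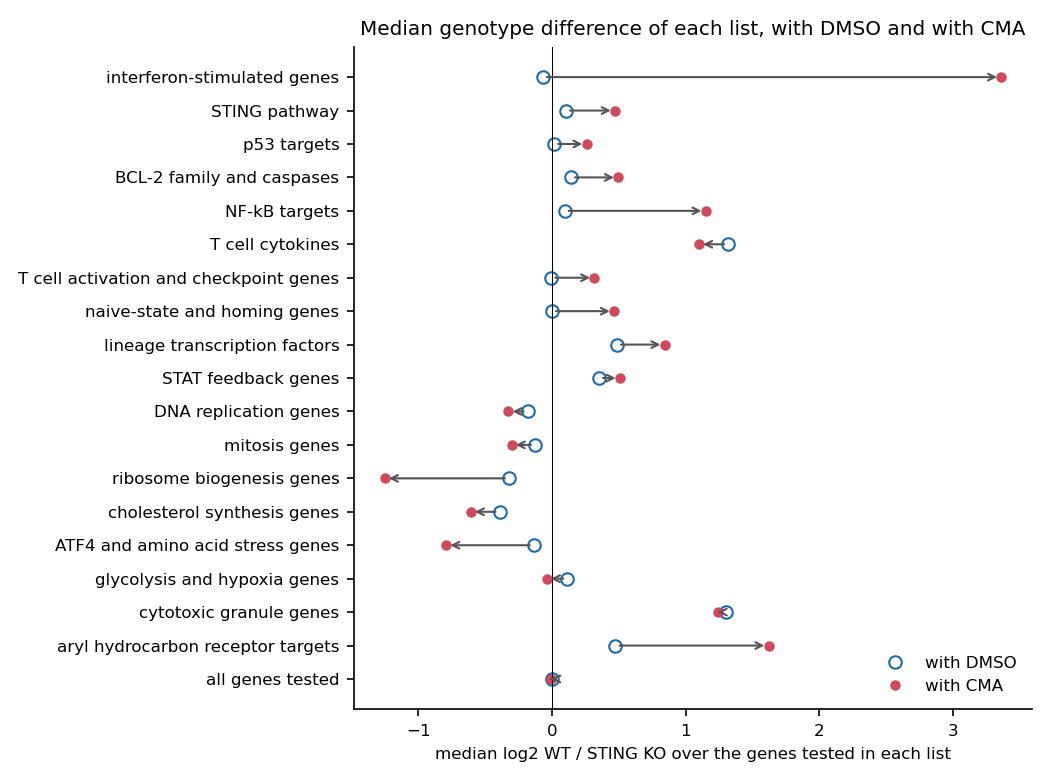
Median log2 ratio of WT to STING KO over the tested genes of each list, with DMSO (open circles) and with CMA (filled circles), the arrow giving the movement. Interferon-stimulated genes moved from -0.0688 to 3.36 and ribosome biogenesis genes from -0.32 to -1.25. The medians of T cell cytokines and cytotoxic granule genes stayed near those with DMSO, over members that moved both ways.

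Converging genes had a gap with DMSO that was no longer past the threshold with CMA. There were 651, of which 386 started higher and 265 lower in WT, and 139 had a difference of at least 2-fold. The median absolute gap went from 0.388 to 0.0784. For 485 of the 651 the 95% interval of the gap with CMA lay within 0.5 on either side of 0, and within 0.25 for 344. In 606 the CMA effect passed the threshold in WT alone.

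Tgm1 (chromosome 14, 55700009 to 55713492), a transglutaminase, had 40.9, 44.3 and 40.1 CPM in WT and 10.8, 12.4 and 9.96 in STING KO with DMSO. With CMA the values were 6.08, 6.7 and 6.87 in WT and 7.53, 5.88 and 7.04 in STING KO, and the groups overlapped. The gap went from 1.92 to -0.05 (95% interval -0.28 to 0.17), a difference of -1.97 (standard error 0.135, adjusted p = 3.41e-09, edgeR). In STING KO Tgm1 fell as well, by 0.70 log2 units (edgeR, adjusted p = 0.00183). Mt1 (chromosome 8, 94179089 to 94180325), a metal-binding metallothionein, had 27.3, 29.7 and 22.3 CPM in WT with DMSO and 6.58, 7.1 and 7.03 with CMA. Its STING KO libraries lay between 6.02 and 7.69 throughout. WT with CMA had thus come to the level of STING KO, the gap then being 0.03 (95% interval -0.22 to 0.28). Entpd1 (CD39), an ectonucleotidase, went the same way, from 7.72 to 9.02 CPM down to 2.9 to 3.05 in WT against 2.44 to 3.61 in STING KO, and so did Enpp1, which degrades the STING ligand cGAMP, with a gap that went from 0.98 to -0.06.

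Sntb1 (chromosome 15, 55638843 to 55906949), a syntrophin, converged from the lower side and had 3.13, 2.38 and 3.49 CPM in WT and 10.9, 12.7 and 12.1 in STING KO with DMSO. In CMA the values were 13.4, 13.3 and 17.9 in WT and 14.7, 16.7 and 17.0 in STING KO. The DMSO groups stood apart and the CMA groups overlapped, the gap going from -1.97 to -0.12 (95% interval -0.35 to 0.12). The difference was 1.85 (standard error 0.185, adjusted p = 2.93e-07, edgeR). Pim2, a kinase that promotes survival, stood at 205 to 223 CPM in WT and 315 to 323 in STING KO with DMSO, and at 338 to 369 and 331 to 347 with CMA, a gap of -0.57 that became 0.06. Mki67, a proliferation marker, had a gap of -0.34 with DMSO and 0.01 with CMA (difference 0.35, adjusted p = 0.00826, edgeR).

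Narrowing genes kept part of their gap. The class held 241 genes, 188 starting higher and 53 lower in WT, and the median absolute gap went from 1.17 to 0.526. It was the class with the largest median gap before CMA. Ctla2b (chromosome 13, 60895351 to 60897447), a protease inhibitor related to procathepsins, had 8.3, 9.02 and 8.73 CPM in WT and 1.11, 1.04 and 1.09 in STING KO with DMSO. They were with CMA 1.73, 1.6 and 2.08 against 1.49, 0.927 and 0.961, a gap that went from 3.01 to 0.69 (difference -2.32, adjusted p = 3.89e-07, edgeR). Ctla2b has a near-identical copy, Ctla2a, so its level is uncertain. Hlx, a homeobox factor of T helper 1 cells, went from a gap of 4.29 to 1.72, with 4.59 to 4.97 CPM and 0.781 to 1.07 in WT and at most 0.328 in STING KO. In the other direction Tnfsf11 (RANK ligand) had 20.2, 16.4 and 17.0 CPM in WT against 61.7, 60.6 and 48.4, and with CMA 53.3, 47.5 and 47.6 against 63.1, 58.9 and 58.8. Its gap went from -1.68 to -0.28 and the groups did not overlap in either treatment.

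The 151 unresolved genes had a median absolute gap of 0.173 with DMSO and 0.148 with CMA. With at least a 2-fold difference there were 36. Among those with a mean count of at least 50 the largest differences were 0.84 for Ttc23, 0.81 for Rgmb and 0.75 for Amt, and -0.68 for Tnni3, -0.60 for Rnf208 and -0.57 for Leng9. Amt, Tnni3, Rnf208 and Leng9 lost the call in at least 1 alternative analysis.

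The cytokine list had a median gap of 1.32 with DMSO and 1.10 with CMA. Of its 19 genes tested, 9 were more positive and 4 more negative in WT for the CMA effect. That is 68.4% of the list, beside 58.8% of all genes. Narrowing was seen for 5 (Il3, Ifng, Tnf, Lta and Tnfsf11), beside 1.74% of all genes. Narrowing requires a gap with DMSO, which 18 of the 19 had, beside 42.7% of all genes. Another 4 widened, beside 14.1% of all genes. Ifng, the hallmark cytokine of T helper 1 cells, stood at 56.8 ± 0.593 CPM in WT and 11.9 ± 0.85 in STING KO with DMSO, and at 34.1 ± 2.86 and 9.81 ± 1.66 with CMA (SD, n = 3). Il22 and Il6 were among those that widened, from gaps of 2.15 and 0.87 to 4.72 and 3.15. Il17a converged, to a gap of 0.53, at levels below 2 CPM.

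Among cytotoxic granule genes, 13 of the 15 listed passed the filter, with a median gap of 1.3 with DMSO and 1.24 with CMA. For the CMA effect 4 were more positive and 4 more negative in WT, or 61.5% of the list beside 58.8% of all genes. Gzma, Gzmc and Prf1, which encode 2 granzymes and perforin, narrowed, Gzma from 45.5 ± 8.77 to 9.61 ± 1.03 CPM in WT against 8.45 ± 0.405 and 7 ± 0.436 in STING KO (SD, n = 3). Serpinb9, an inhibitor of granzyme B, diverged, with 87.5 to 89.8 CPM and 449 to 481 in WT and 80.1 to 91.8 in STING KO, a difference of 2.34. Its relative Serpinb6b and the proteoglycan Srgn widened, by 2.21 and 1.09. The summed CD8 and natural killer cell markers moved beside the granule genes, from 66.2 to 71.1 CPM down to 48.8 to 50 in WT, and their part was not tested.

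Of 16 lineage transcription factors, 6 were more positive and 3 more negative in WT, or 56.2% of the list beside 58.8% of all genes. Prdm1, Maf and Ahr, which started 2.55, 3.45 and 2.48 log2 units higher in WT, narrowed to 1.31, 2.34 and 0.86. Rora, by contrast, diverged, with 23 to 29.1 CPM and 78.5 to 80.5 in WT against 23.1 to 26.2 in STING KO. Tbx21 (T-bet), the master factor of T helper 1 cells, diverged by 0.57 although it rose in both genotypes, by 0.87 in WT and by 0.30 in STING KO (adjusted p = 2.15e-11 and 0.00208, edgeR).

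Genes of T cell activation and of the naive state held members of most classes. Of 24 activation and checkpoint genes, 9 were more positive and 9 more negative in WT, or 75% of the list beside 58.8% of all genes. Lag3, an inhibitory receptor, widened from a gap of 0.20 to 2.27, with 183 to 212 CPM in WT with DMSO, 874 to 908 with CMA and 162 to 187 over STING KO. Cd40lg, Egr1, Egr3 and Nfatc1 widened downwards, with differences of -1.33, -1.50, -0.65 and -0.57. Of 17 naive-state and homing genes, 12 were more positive in WT, among them Ccr7, the lymph node homing receptor, at 524 to 599 CPM and 2215 to 2288 in WT against 569 to 645 in STING KO. The 4 that were more negative were Id3, Itgb7, Il6ra and Igfbp4, and 94.1% of the list passed beside 58.8% of all genes. Dapl1 and Igfbp4 narrowed from opposite sides, from gaps of -1.59 and 1.33 to -0.82 and 0.27.

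Of the NF-κB list 13 of 18 genes were more positive and 1 (Ccl3) more negative in WT, or 77.8% of the list beside 58.8% of all genes. Nfkbia (chromosome 12, 55489411 to 55492647), the inhibitor IκBα and itself a target, diverged, with 151, 161 and 142 CPM in WT with DMSO and 605, 639 and 583 with CMA against 146 to 158 over all STING KO libraries. Tnfaip3 (A20) and Nfkbie, which also restrain NF-κB, widened upwards from gaps of 0.46 and 0.39, with differences of 1.93 and 1.98. Tnf and Lta, in contrast, were lower in WT with both treatments, with gaps of -0.70 and -0.63 that narrowed to -0.44 and -0.30. In the STING pathway, 7 of 11 tested genes were more positive and 3 more negative, or 90.9% of the list. Ikbke and Trim56, of the kinase and ubiquitin steps, crossed, with gaps of -0.77 and -0.27 that became 1.01 and 1.45.

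The death-related lists spread over the classes. Of 23 BCL-2 family genes and caspases 15 were more positive and 4 more negative in WT. That is 82.6% of the list, beside 58.8% of all genes. Of the 23, 8 widened and 5 crossed, beside 14.1% and 7.31% of all genes. Casp6, an executioner caspase, narrowed, from 152 ± 5.13 to 63.7 ± 3.13 CPM in WT against 45.2 ± 1.90 and 37.7 ± 1.38 (SD, n = 3). Bid, Bik and Cycs were the other members more negative in WT. Of 23 p53 targets 11 were more positive and 5 more negative, or 69.6% of the list beside 58.8% of all genes. Fas, the death receptor, diverged by 1.22, while Sesn1, Aen and Plk2 widened downwards and Cdkn1a missed the threshold (0.23, adjusted p = 0.0704, edgeR).

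Of 22 DNA replication genes 3 were more positive and 11 more negative in WT, and of 20 mitosis genes 3 and 11, or 63.6% and 70% of these lists beside 58.8% of all genes. With DMSO, 15 and 9 of these were lower in WT and none was higher. Of all genes 42.7% differed with DMSO, and 3160 of these 5900 were higher in WT. Mcm2, of the replicative helicase, widened from -0.18 to -0.75, and Plk1, a mitotic kinase, diverged from -0.06 to -0.48. Ccne1 (cyclin E1) went against them, with 61.8 to 64.9 CPM and 139 to 141 in WT against 57.6 to 66.3 in STING KO, a difference of 0.99. Of 20 glycolysis and hypoxia genes, 11 were more negative and 2 more positive, or 65% of the list. With DMSO 10 were higher in WT and 1 lower, beside the 42.7% of all genes that differed in either direction. Some of these counts moved with single libraries. The 3 replication genes fell to 1 without STING KO CMA replicate 3, STING KO DMSO replicate 2 or WT CMA replicate 1 or 3, and the 3 mitosis genes to 1 without WT CMA replicate 3. The 11 replication genes became 7 with median-of-ratios scaling. Slc2a1, Pgam1, Bnip3 and P4ha1 converged, and Egln3, Slc2a3 and Pkm crossed, Egln3 from a gap of 0.48 to -0.56.

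The short lists of STAT feedback and aryl hydrocarbon receptor targets were mixed. Of 14 STAT feedback genes 7 were more positive and 2 more negative, or 64.3% of the list beside 58.8% of all genes. Stat4 and Pim1 widened, to gaps of 1.35 and 1.34. Of the 4 aryl hydrocarbon receptor targets that passed the filter, 3 were more positive, and Scin, an actin-severing protein, rose from 1.13 to 1.63 CPM to 145 to 155 in WT against 1.56 to 2.15 in STING KO, a difference of 6.51. The best known targets of that receptor, Cyp1a1, Cyp1b1 and Ahrr, did not pass the filter.

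**Figure D5:**
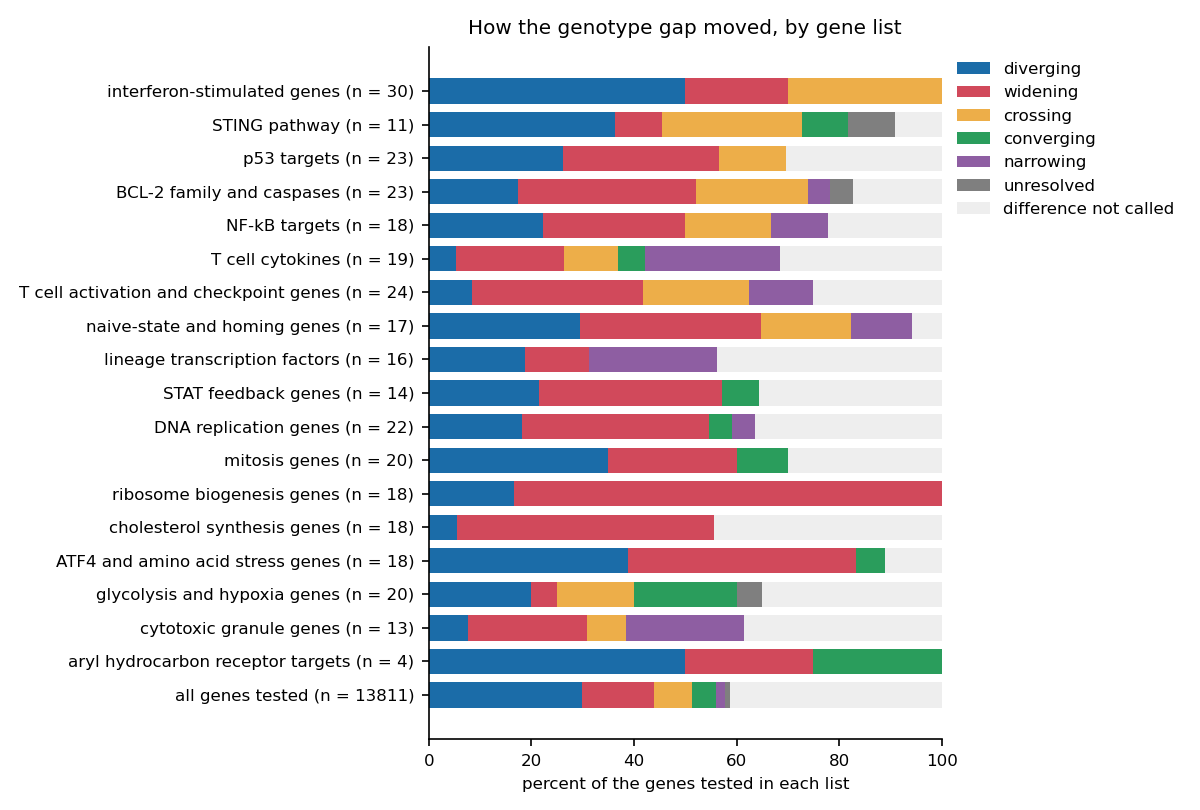
Share of the tested genes of each list in each class, in percent, with the number tested in brackets and all genes at the bottom. Light grey stands for genes with no difference of the CMA effects past the threshold. All 30 interferon-stimulated genes, all 18 ribosome biogenesis genes and all 4 aryl hydrocarbon receptor targets fall into classes, and purple (narrowing) is widest for cytokines, lineage factors and granule genes.

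Read from the starting gap, the 5900 genes that differed with DMSO went in both directions alike. The difference ran with the gap and passed the threshold for 33% of them and against it for 32.2%. The DMSO libraries enter both quantities, so an error in them pushes the difference against the gap, and these shares are a description. Among the 791 genes at least 2-fold higher in WT with DMSO, 155 widened, 120 narrowed, 84 converged and 35 crossed, and 355 held a gap of the same sign without a difference past the threshold. Among the 215 at least 2-fold lower, 42 widened, 17 narrowed, 36 converged, 41 crossed and 60 held. These larger gaps did not go in both directions alike. The difference passed the threshold against the gap for 30.2% of the 791 and with it for 19.6%. For the 215 these shares were 43.7% and 19.5%, with the same limit from the shared DMSO libraries.

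Held gaps numbered 1627 in all, 969 of them higher in WT, with median absolute gaps of 0.434 with DMSO and 0.492 with CMA. For 1052 of them the 95% interval of the difference lay within 0.5 on either side of 0. Socs3, a feedback inhibitor of cytokine receptors, stood at 230 ± 9.38 and 177 ± 8.88 CPM in WT and 46.0 ± 2.45 and 38.6 ± 2.03 in STING KO (SD, n = 3), a difference of -0.12 with a 95% interval of 0.165 either way. Tox, a factor of persistently stimulated T cells, held a gap in the other direction, with 14 ± 1.86 and 14 ± 0.695 against 39.6 ± 1.89 and 41.5 ± 1.86. Gzmb (granzyme B) fell in parallel, from 2107 ± 227 to 1463 ± 48.6 in WT and from 858 ± 21.5 to 649 ± 23.7 in STING KO. Il21, Il10 and Il24 had gaps above 5 log2 units with both treatments. Their differences were 0.52, 0.95 and 0.58, and none passed the threshold (adjusted p = 0.0648, 0.241 and 0.213, edgeR). The 95% intervals reached 0.494, 1.44 and 0.831 either way, so none lay within 0.5 of 0 and an equal gap is not shown. In STING KO Il10 had means of 0.119 CPM with DMSO and 0.118 with CMA, and Il24 1.47 and 0.488, so these differences rest on few reads.

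CMA effects in opposite directions were rare. Both effects and their difference passed the threshold with opposite signs for 36 genes, or 0.261% of those tested, with 23 up in WT and down in STING KO and 13 the other way. The STING KO effects were small, and the count rests on their calls. These calls use 1 estimate of the spread shared by all 4 groups, so WT libraries enter them as well. The count was 81 with DESeq2, 102 without a filter on low counts and 85 with the replicate number as a block within genotype. Without 1 library it ran from 9 (without STING KO DMSO replicate 2 or STING KO CMA replicate 3) to 112 (without WT DMSO replicate 2). At an adjusted p of 0.01 it was 8.

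Il7r (chromosome 15, 9506161 to 9529876), the interleukin-7 receptor that keeps naive and memory T cells alive, had 69.8, 73.3 and 73.7 CPM in WT with DMSO and 163, 160 and 161 with CMA. In STING KO it had 21.7, 23.3 and 25.9 with DMSO and 16.8, 18.7 and 17.1 with CMA. No DMSO library overlapped the CMA libraries of its genotype. The effects were 1.16 and -0.42 (adjusted p = 9.43e-12 and 0.00271, edgeR). Dhx58 (LGP2), an interferon-stimulated helicase, moved likewise and rose from 43.8 to 49.7 up to 219 to 226 in WT and fell from 41.4 to 48.9 down to 33.3 to 36.6 in STING KO.

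Egr2 (chromosome 10, 67535475 to 67542188), a transcription factor induced by the T cell receptor, went the other way. It had 55.1, 52.1 and 54.4 CPM in WT with DMSO and 11.7, 12.3 and 10.5 with CMA, and in STING KO 53.3, 52.5 and 59.9 with DMSO and 68.2, 74.6 and 75.1 with CMA. The effects were -2.23 and 0.40 (adjusted p = 6.27e-14 and 0.00271, edgeR). Slc29a1, a nucleoside transporter, fell from 92.7 to 101 down to 35.2 to 37.3 in WT and rose from 143 to 156 up to 174 to 180 in STING KO. Other genes of the 36 were Gata3, the T helper 2 factor, Cxcr4, Ifngr2 and Anxa2 (up in WT, down in STING KO) and Irf8, Itm2a and Nab2 (down in WT, up in STING KO), chosen by name after their values were seen. Of the 36, 26 widened, 6 diverged and 4 crossed, and none converged or narrowed. Over all genes the shares were 14.1%, 29.9%, 7.31%, 4.71% and 1.74% in the same order.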

How the data were processed

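RNA sequencing of 12 libraries was analysed from raw counts of reads per Ensembl gene, which the authors deposited without normalization for 38924 gene IDs. A further deposited table holds log2 expression of 11921 genes as normalized by the authors and served for 1 alternative. The submitters' processing notes name cutadapt 1.3, STAR 2.4.0f1, HTSeq 0.6.1, RSEM 1.2.16 and GRCm38. The library kit keeps strand, and the strand setting of the counting is not given in the sources used here. Alignments that were not unique (27.8% to 30.3% of entries), reads outside genes (4.86% to 7.16%) and ambiguous reads (0.594% to 0.635%) were kept out of library sizes, which lowers the level of genes that have near-identical copies.

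The 4 groups were fitted in 1 model with edgeR 4.0.16 in R 4.3.3 (TMM, filterByExpr, glmQLFit, glmQLFTest, no covariate), with Benjamini-Hochberg adjustment over the 13811 genes and a threshold of 0.05. Positions are those of the deposited table. The comparisons were the CMA effect in each genotype, their difference and the genotype gap with each treatment. A group with at most 3 counts in every library was treated as at the floor, and folds against it use 3 counts per library. With 3 libraries against 3 an exact permutation test cannot go below p = 0.1, so no such test is given. Genes named are the 3 with the largest difference per class and direction (mean count of at least 50, no predicted models), the 3 largest each way with opposite effects and up to 3 per list with the smallest p. A few genes that this rule or the lists hold are counted but not reported here by name. Further list members are given as examples chosen after their values were seen. The members, lists and classes were chosen with earlier results of these data known. RefSeq windows of GRCm38.p6 were matched by symbol or synonym for 10322 of the genes tested (10269 distinct symbols), and no sequence from chromosome 18 is printed.

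In simulated counts for 13585 genes, edgeR recovered 42 of 66 differences of 0.5, 55 of 67 of 1 and 62 of 65 of 2 log2 units. It called 3 unchanged genes. The simulation changed few genes, only in WT with CMA, without a genotype gap and with the same spread in every group. The data differ on each of these points, so these rates need not hold for them. Replicate numbers were not taken as pairs in the main model, since no label states a shared animal or batch. Same-numbered DMSO and CMA libraries correlated weakly, at 0.00195 to 0.132, in their deviations from the group means. The sample names share a first digit in 5 of the 6 same-numbered pairs, so the libraries may be paired. Alternatives were other scalings, DESeq2 1.42.0, limma 3.58.1 (voom on counts, and the log2 table), other filters and thresholds, replicate blocks and leaving out each library. The list counts in each alternative and the band of 0.25 were added after the data were seen.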

Additional observations from a re-analysis of the deposited data

Results flagged for a closer look

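CMA moved 36 genes in opposite directions in the genotypes, each with both effects and the difference past the threshold in edgeR's test. The 6 named here were tested for the difference itself. The difference of the CMA effects on the log2 scale was 2.62 for Dhx58, 2.07 for Apold1 and 1.58 for Il7r, which rose in WT and fell in STING KO. It was -2.62 for Egr2, -1.83 for Synpo and -1.67 for Slc29a1, which fell in WT and rose in STING KO. Over 21 alternative fits none of these differences lost its call. The 6 genes were chosen for large differences, so this does not bear on the opposite signs. At an adjusted p of 0.01 the 36 genes became 8. For the 6 genes the STING KO effects were small, from -0.56 for Apold1 to 0.40 for Egr2, with adjusted p from 0.00271 to 0.0358 (edgeR). Over the 36 genes they ran from -0.87 for Dnm1 to 0.68 for Ccl3.

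Reads that fell outside annotated genes, which no comparison used, took a larger share in WT with CMA than in its DMSO control. The median was 6.94% in WT with CMA (6.79% to 7.16%) against 4.86% to 5.47% in WT with DMSO. STING KO had 5.98% to 6.54% with DMSO and 6.02% to 6.33% with CMA, so those groups overlapped. What these reads hold was not tested.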

How the results depend on the processing

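With 3 libraries per group small effects can be missed, and genes near the floor rest on few reads. The numbers of genes more positive and more negative in WT stayed within 1.5 times under the alternatives, except that a 2-fold minimum gave 1201 and 1008. That minimum left 999 diverging, 508 widening, 464 crossing, 139 converging, 63 narrowing and 36 unresolved genes and 21 with opposite effects. An adjusted p under 0.01 left 1221 widening, 576 crossing and 127 narrowing genes and 8 with opposite effects, and at least 10 counts in every library left 100 unresolved. Genes with opposite effects numbered 81 with DESeq2, 102 without a filter and 85 with a replicate block within genotype; the cause was not tested.

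Leaving out 1 library gave 3480 to 3985 genes more positive and 4043 to 4572 more negative in WT, 3944 to 4411 diverging, 1571 to 2113 widening, 788 to 1171 crossing, 528 to 702 converging, 180 to 280 narrowing and 107 to 169 unresolved. For opposite effects the range was 9 to 112, with 112 and 110 without WT DMSO replicate 2 or 3, 13, 9 and 11 without STING KO DMSO replicate 1, 2 or 3, and 15, 10 and 9 without STING KO CMA replicate 1, 2 or 3. The spread between replicate libraries was largest in WT with DMSO. As chi-square per degree of freedom between pairs of libraries it was 9.98 to 29.9 there and 2.63 to 6.82 in the other groups. Over the 20 alternative fits that give classes (the replicate block within genotype gives none) 81.7% to 98.1% of the diverging, 78.7% to 97.6% of the widening, 75.3% to 97.8% of the crossing, 71.7% to 96.5% of the converging and 71.8% to 94.2% of the narrowing genes kept their class, against 22.5% to 82.8% of the unresolved.

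Same-numbered DMSO and CMA libraries correlated in their deviations at 0.00195, 0.104 and 0.132 in WT and 0.0634, 0.0597 and 0.0585 in STING KO. Every DMSO library other than WT replicate 1 correlated best with the CMA library of its own number. The main model did not take the numbers as pairs, and whether the libraries are paired cannot be told from the labels. A replicate block shared by all groups gave 3721 genes more positive and 4307 more negative, and a block within genotype 3951 and 4493.

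Of 92 named genes, each in the up to 21 fits that gave it a value, 6 lost the call in at least 1 (Amt, Inhbb, Leng9, Rnf208, Serpinb5 and Tnni3) and none changed direction. Library-size scaling shifted the median difference of all genes by -0.0248. Among the lists, DNA replication genes more negative in WT went from 11 to 7 in 3 fits (at least 10 counts in every library, limma on the log2 table and median-of-ratios scaling); the other list counts that moved by over 1.5 times were of 5 genes or fewer.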
